A study of Arabidopsis thaliana with 6 samples.

Results

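The genes described here make jasmonate in the leaf or respond to it: VSP1 (AT5G24780), VSP2 (AT5G24770), LOX2 (AT3G45140), AOS (AT5G42650), AOC1 (AT3G25760), AOC2 (AT3G25770), OPR3 (AT2G06050) and MYC2 (AT1G32640) of Arabidopsis thaliana. They were chosen by gene identifier, 8 of the 38194 genes listed, with their levels in these libraries already known, so their levels are given as a description and support nothing further. Leaf RNA with poly(A) tails was measured in 3 libraries of the wild type Col-0 and 3 of the double mutant mac3a mac3b. All plants were 40 days old, had not left the vegetative phase, and were kept at 22 °C in days of 8 h of light followed by 16 h of darkness. MAC3A and its paralog MAC3B belong to the MOS4-associated complex, which joins the spliceosome, and the study was made to learn why plants lacking both flower early. The labels do not say whether libraries of one genotype came from separate plants, so p-values measure the spread between these libraries, which may be technical. They also give no mutant allele and no hour of collection.

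Jasmonate is an oxylipin hormone made from a fatty acid of chloroplast membranes. In the chloroplast a 13-lipoxygenase such as LOX2 oxidises it, allene oxide synthase (AOS) makes an unstable epoxide, and allene oxide cyclases such as AOC1 and AOC2 close its ring to give OPDA. OPR3 reduces OPDA in the peroxisome, beta-oxidation shortens the chain, and the hormone, once joined to isoleucine, lets the receptor COI1 remove JAZ repressors from the bHLH transcription factor MYC2. In leaves MYC2 and its relatives drive wound and storage genes, among them VSP1 and VSP2, the vegetative storage proteins of the acid phosphatase family, and hold back a separate branch, run by ERF factors, that ends in defensins such as PDF1.2.

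The libraries held 80626787 to 108909613 unique reads over the 13069 genes that have such counts. The targeted gene MAC3A ran from 16.7 to 22.0 RPKM (reads scaled to transcript length and library size) over the Col-0 libraries and from 5.92 to 8.87 RPKM over the mutant ones, and MAC3B from 35.4 to 49.0 and from 5.64 to 8.98 RPKM. The 6 leaf markers, led by the Rubisco small subunit gene RBCS1A, summed to 11210 to 32020 RPKM in wild-type and 24745 to 36303 RPKM in mutant libraries. The 5 flower markers reached at most 1.44 RPKM in sum, the 4 root markers 1.05 and the 2 seed markers 0.05. The 2 senescence markers reached 0.99 RPKM, with SAG12 listed at 0 in every library. The Col-0 library with the lowest leaf marker sum was replicate 3, which also stood apart in the genes described next. Fewer cells of a type and less RNA per cell cannot be told apart in RNA of whole leaves.

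The response genes VSP1 and VSP2 lie near each other on the minus strand of chromosome 5 (TAIR10.1), VSP2 at 8500468 to 8502224 and VSP1 at 8507590 to 8509201. VSP2 was at 10.9, 3.83 and 0.51 RPKM in Col-0 replicates 1, 2 and 3, and at 61.1, 44.3 and 67.0 RPKM in the mutant replicates. It was the only one of the 8 genes whose groups did not overlap. The wild-type mean was 5.08 ± 5.31 RPKM and the mutant mean 57.5 ± 11.8 RPKM (SD, n = 3), which is 11.3-fold higher. On the scale of log2(RPKM + 1) the difference was 3.70 (SE 0.70), against a median of 0.01 over all genes tested. Most of the relative spread was in Col-0, so the fold within same-numbered libraries ran from 5.60 in replicate 1 to 11.6 in replicate 2 and 131.4 in replicate 3.

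VSP1 was at 5.95 and 0.17 RPKM in Col-0 replicates 1 and 2 and was listed at 0 in replicate 3. In the mutant it was at 8.07, 1.43 and 8.77 RPKM. The groups overlapped, since mutant replicate 2 lay below Col-0 replicate 1, although the mutant library was the higher in 3 of 3 same-numbered pairs. Both storage protein genes thus had their lowest mutant level in replicate 2 and their lowest Col-0 level in replicate 3. Their coding sequences are 90.4% identical, but only 0.4% of the 50-base windows of VSP1 occur exactly in VSP2. How reads were assigned between them was not tested.

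LOX2 (chromosome 3, 16525245 to 16529352, plus strand) was the highest of the 8 genes in every library. Its level was 717.2, 653.7 and 139.8 RPKM in Col-0 and 641.4, 689.5 and 858.4 RPKM in the mutant. Replicate 3 of Col-0 was far below the other 5 libraries, which lay between 641.4 and 858.4 RPKM. The log2 difference of 0.84 (SE 0.64) therefore turned on that library, and without it the difference was 0.08.

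AOS (chromosome 5, 17097564 to 17099595, minus strand) was at 220.1, 228.0 and 75.8 RPKM in Col-0 and at 240.6, 305.2 and 150.6 RPKM in the mutant. Replicate 3 was the lowest library of each genotype, and the mutant library was the higher in all 3 same-numbered pairs, by 1.09-fold to 1.99-fold. The groups overlapped.

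The cyclase genes AOC1 and AOC2 are neighbours on the plus strand of chromosome 3, at 9403779 to 9405338 and 9406669 to 9408071. AOC1 was at 48.3, 66.9 and 16.9 RPKM in Col-0 and at 76.1, 106.7 and 51.4 RPKM in the mutant. Its mutant library was the higher in each same-numbered pair, by 1.58-fold, 1.59-fold and 3.05-fold, but the groups overlapped. AOC2 was at 428.8, 343.0 and 113.5 RPKM in Col-0 and at 275.7, 350.9 and 246.3 RPKM in the mutant. Its means, 295.1 ± 163.1 and 291.0 ± 53.9 RPKM (SD, n = 3), differed by far less than the spread between replicates. The neighbours are 90.3% identical in coding sequence and share no exact 50-base window. How reads were assigned between them was not tested. The log2 difference was 0.95 (SE 0.53) for AOC1 and 0.17 (SE 0.51) for AOC2. Without Col-0 replicate 3 that of AOC1 was 0.39. AOC1 was among the genes called with the block by DESeq2 and after rescaling RPKM to equal sums, but not by limma with the block on RPKM as deposited or by edgeR with the block.

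OPR3 (chromosome 2, 2359114 to 2362375, minus strand), the peroxisomal reductase, was at 46.7, 62.8 and 41.8 RPKM in Col-0 and at 62.0, 132.5 and 44.9 RPKM in the mutant. MYC2 (chromosome 1, 11798119 to 11801407, minus strand) was at 29.3, 61.5 and 30.9 RPKM in Col-0 and at 54.6, 157.2 and 42.1 RPKM in the mutant. Replicate 2 was the highest library of each genotype for both genes. In the mutant, replicate 2 stood at 248% of the mean of the other 2 libraries for OPR3 and at 325% for MYC2. Both genes were higher in the mutant in 3 of 3 same-numbered pairs, and their groups overlapped.

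**Figure D1:**
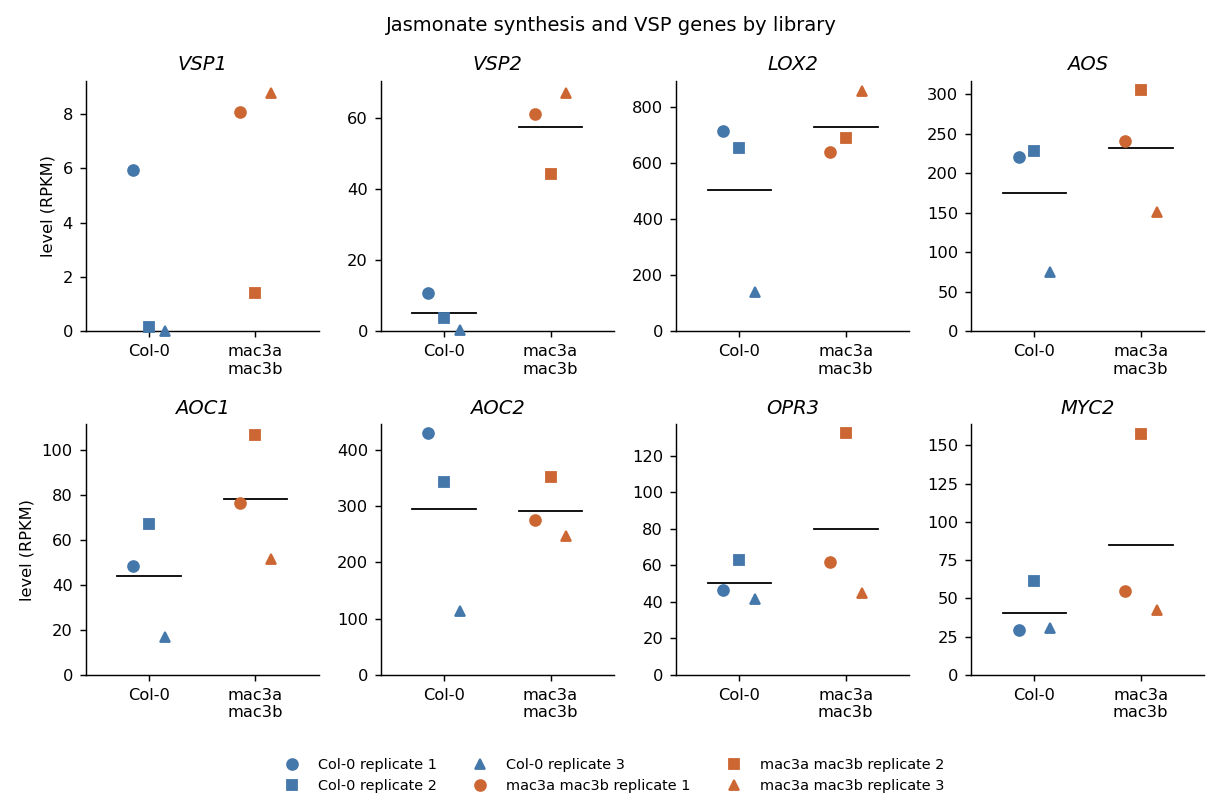
Level in RPKM of each gene in the 3 Col-0 libraries (blue) and the 3 mac3a mac3b libraries (orange), on linear axes that start at 0; marker shapes give the replicate number and bars the group mean, left out for VSP1, which is listed at 0 in Col-0 replicate 3. Only for VSP2 do all mutant libraries (44.3 to 67.0 RPKM) lie above all Col-0 libraries (0.51 to 10.9 RPKM), and the blue triangle, Col-0 replicate 3, is the lowest Col-0 library in 7 panels.

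All 8 genes had a positive log2 difference, with a median of 0.86, though AOC2 turned negative with DESeq2 (−0.07) and edgeR (−0.02) on unique reads and, like AOS (−0.01), without Col-0 replicate 3 (−0.41). Without that library the median was 0.39. In the limma fit over 17163 genes, 0 of the 8 had an adjusted p under 0.05, where 0.105% of all genes did (0.0524% higher in the mutant and 0.0524% lower). An unadjusted p under 0.05 was found for 1 of the 8, VSP2, and for 1893 of all 17163 genes. With the replicate number as a block 1 had an adjusted p under 0.05, again VSP2, where 4.52% of all genes did. DESeq2 on the unique read counts called 1 of the 5 genes that have such counts and edgeR 0 of 5. No share over all genes is at hand for these fits. The mutant range lay wholly above the Col-0 range for 1 of the 8 genes, as for 9.15% of all genes, and wholly below it for 0, as for 7.28%. Of the 8, 1, namely VSP2, had in the authors' deposited table an adjusted p under 0.05, as did 4.24% of the genes with a value there. The genes were chosen on these values, so nothing is read from these counts.

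One wild-type library set much of the spread. Replicate 3 was the lowest Col-0 library for 7 of the 8 genes, all but MYC2, while it was the lowest for 31.3% of all genes tested. As a percentage of the mean of Col-0 replicates 1 and 2, it held 6.92% of VSP2, 20.4% of LOX2, 29.3% of AOC1, 29.4% of AOC2 and 33.8% of AOS. MYC2 and OPR3 were less affected, at 68.1% and 76.3%, and the median over all genes tested was 102%. The same library had the lowest sum of RPKM, 541542 against at most 710822, and the lowest leaf marker sum. With RPKM rescaled to equal sums, the median log2 difference of the 8 genes was 0.77, against 0.86 as deposited. Beyond that, the part of these features in the levels was not tested.

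The genes did not vary as one group. Over the 6 libraries, the log2 levels of OPR3 and MYC2 followed each other most closely, with Pearson's r of 0.97, and AOS and AOC1 came next among enzymes of the chloroplast, with r of 0.96. VSP2 had r of 0.80 with VSP1 and 0.77 with LOX2, but only 0.44 with MYC2, and VSP1 had r of −0.16 with MYC2. These coefficients are descriptions over 6 libraries, which share the difference between the genotypes and their replicate numbers.

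Over 8923 genes whose mean reached 10 RPKM, GUN5, the magnesium chelatase subunit of chlorophyll synthesis, had the pattern most like that of VSP2, with Pearson's r of 0.996 over the 6 libraries. GUN5 was at 420.3, 275.6 and 141.7 RPKM in Col-0 and at 1088, 740.5 and 999.2 RPKM in the mutant. AT1G04800, AT1G75180, AT3G01810 and AT2G34460 followed, with r from 0.989 to 0.993. For LOX2 the closest was LON2, a protease of peroxisomes, with r of 0.995, and then AT3G28715, AT1G32220, HBP5 and PnsB1, the last at 0.979. LON2 was at 34.7, 34.8 and 20.3 RPKM in Col-0 and at 33.9 to 35.8 RPKM in the mutant, so Col-0 replicate 3 was again the library that stood apart.

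The rest of the pathway was described through 77 genes in 7 lists, of which 61 could be tested. Without the block 0 of 61 had a limma adjusted p under 0.05, where 0.105% of all genes passed. An unadjusted p under 0.05 was found for 14 of 61 and for 1893 of all 17163 genes tested. On unique reads edgeR called 0 and DESeq2 6 of 44, with no share over all genes at hand for either. With the block, limma called 10 higher and 1 lower, against 2.7% higher and 1.82% lower of all genes tested. The calls named in the next paragraphs are those made with the block. Of these, ACX5, AT5G05600, JAZ5, JAZ9 and NIG1 had an adjusted p under 0.05 in the authors' deposited table, as did 4.24% of its genes. ILL6, JMT, JAZ3, JAZ6, NAC019 and ORA59 did not. CYP94C1, JAZ7, JAZ10, JR1, PDF1.2a and CHIB passed there without a call with the block, and JAZ7 and JAZ10 are named only for that.

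Of 17 other synthesis genes tested, 1 rose. ACX5, an acyl-CoA oxidase of peroxisomal beta-oxidation, was at 5.85, 9.62 and 7.85 RPKM in Col-0 and at 13.1, 17.9 and 17.0 RPKM in the mutant, without overlap. Its log2 difference was 0.97 (limma adjusted p 0.206, with the block 0.0255). The highest gene of this list, FAD7, a chloroplast fatty acid desaturase, ran from 95.7 to 198.6 RPKM in wild-type and from 132.0 to 197.9 RPKM in mutant libraries. The list's median log2 difference was 0.14, with 13 of 17 positive; without mutant replicate 2 it was −0.02, with 8 of 17 positive, and with RPKM rescaled to equal sums 0.04.

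Of 5 tested turnover genes, which convert or inactivate the hormone, 3 rose, namely ILL6, AT5G05600 and JMT. AT5G05600, annotated as a 2-oxoglutarate and Fe(II)-dependent oxygenase, was at 9.03, 7.37 and 4.69 RPKM in Col-0 and at 23.1, 26.0 and 11.4 RPKM in the mutant, again without overlap (log2 difference 1.36; limma adjusted p 0.26, with the block 0.0254). ILL6, an amidohydrolase that releases jasmonate from its isoleucine conjugate, went from 3.35 ± 1.99 to 9.19 ± 4.25 RPKM (SD, n = 3; limma adjusted p with the block 0.0341). JMT, which methylates jasmonate, went from 1.96 ± 1.05 to 4.38 ± 2.25 RPKM (SD, n = 3), and its groups overlapped (limma adjusted p 0.482, with the block 0.0378). CYP94C1, named after its values were seen, was at 0.53, 0.86 and 0.56 RPKM in Col-0 and at 2.47, 12.3 and 1.02 RPKM in the mutant. Its groups did not overlap, but it did not pass (log2 difference 1.47, limma adjusted p 0.48, with the block 0.144). The highest of the list was IAR3, another amidohydrolase, at 13.8 to 16.4 RPKM in wild-type and 18.9 to 33.3 RPKM in mutant libraries, which did not pass. All 5 had a positive log2 difference, with a median of 1.28, or 0.80 without Col-0 replicate 3.

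Among 10 tested JAZ repressor genes, JAZ3, JAZ5, JAZ6 and JAZ9 rose and 0 fell; 9 had a positive log2 difference, 8 with RPKM rescaled to equal sums, and the median was 1.03. JAZ9 was at 66.2, 57.2 and 27.6 RPKM in Col-0 and at 208.3, 286.7 and 227.3 RPKM in the mutant. These groups stood well apart, by a log2 difference of 2.31 (SE 0.36; limma adjusted p 0.109, with the block 0.0255). JAZ5 went from 1.78 ± 0.886 to 12.8 ± 9.74 RPKM (SD, n = 3; limma adjusted p with the block 0.0255). JAZ6 went from 35.3 ± 11.0 to 111.3 ± 74.0 RPKM (0.0362 with the block), and JAZ3 from 5.77 ± 2.40 to 12.8 ± 5.71 RPKM (0.0254 with the block). The groups of JAZ3 overlapped. Like MYC2, JAZ5, JAZ6 and JAZ3 were highest in mutant replicate 2, and so was JAZ9.

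Of 10 tested genes of reception and transcription, 1 rose. NIG1, a bHLH factor, was at 0.64, 0.32 and 0.27 RPKM in Col-0 and at 2.18, 2.15 and 2.84 RPKM in the mutant, with no overlap (log2 difference 1.27; limma adjusted p 0.109, with the block 0.034). COI1, the receptor, was at 15.9 ± 2.68 and 18.2 ± 2.70 RPKM (SD, n = 3). MYC3, a relative of MYC2 and the highest of the list, was at 27.1, 50.7 and 53.1 RPKM in Col-0 and at 19.8, 35.8 and 34.1 RPKM in the mutant. The mutant library was the lower in each pair for MYC3 and MYC3 did not pass (limma adjusted p with the block 0.0798).

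The 8 tested genes of the MYC branch gave 1 call, NAC019, a NAC transcription factor. It was at 9.39, 36.8 and 14.1 RPKM in Col-0 and at 24.1, 116.3 and 31.8 RPKM in the mutant. The groups overlapped, but the mutant was higher in each pair (log2 difference 1.34; limma adjusted p 0.56, with the block 0.0254). The highest gene of the list, CORI3, a cystine lyase, was at 234.3 ± 33.8 and 229.4 ± 87.7 RPKM (SD, n = 3), less apart than its replicates. A gene chosen after its values were seen, JR1, a jacalin-related lectin, was at 8.92, 12.1 and 5.61 RPKM in Col-0 and at 20.01, 20.4 and 51.2 RPKM in the mutant. Its groups did not overlap, and it did not pass (limma adjusted p 0.265, with the block 0.114). In the authors' deposited table its adjusted p was 0.0209.

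Of 6 listed ERF branch genes 5 were tested, and 1 fell. Of the 5, 4 had a negative log2 difference, with a median of −2.11, and ERF1 a positive one of 0.56. The median is the value of PR4, a pathogenesis-related gene named after its values were seen. PR4 was at 59.99, 10.91 and 51.23 RPKM in Col-0 and at 2.08, 1.53 and 59.52 RPKM in the mutant. Its groups overlapped, and the mutant library was the higher in replicate 3. PR4 did not pass (SE 1.304; limma adjusted p 0.636, with the block 0.198). ORA59, an ERF transcription factor that activates defensin genes, was at 2.20, 6.33 and 1.96 RPKM in Col-0 and at 0.32, 2.25 and 0.36 RPKM in the mutant. It was lower in the mutant in each pair (log2 difference −1.19; limma adjusted p 0.447, with the block 0.0254). PDF1.2a, the defensin with the highest level of the list, was at 107.8, 31.2 and 7.10 RPKM in Col-0 and at 0.82, 0.12 and 2.06 RPKM in the mutant. PDF1.2a did not overlap between genotypes but missed the threshold (log2 difference −4.05, SE 0.92; limma adjusted p 0.206, with the block 0.0677). PDF1.2b, named after its values were seen, ran from 1.95 to 16.2 RPKM in wild-type and from 0.01 to 0.75 RPKM in mutant libraries. Whether it shares reads with PDF1.2a was not tested. CHIB, a basic chitinase also named after its values were seen, was too low to be tested and went the other way, with 0.31, 0.28 and 0.30 RPKM in Col-0 and 0.76, 0.84 and 1.66 RPKM in the mutant, without overlap. In the authors' deposited table the adjusted p was 6.2e-06 for PDF1.2a, 0.234 for ORA59, 0.114 for PDF1.2b and 0.00212 for CHIB, whose log2 fold change there was 1.85.

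**Figure D2:**
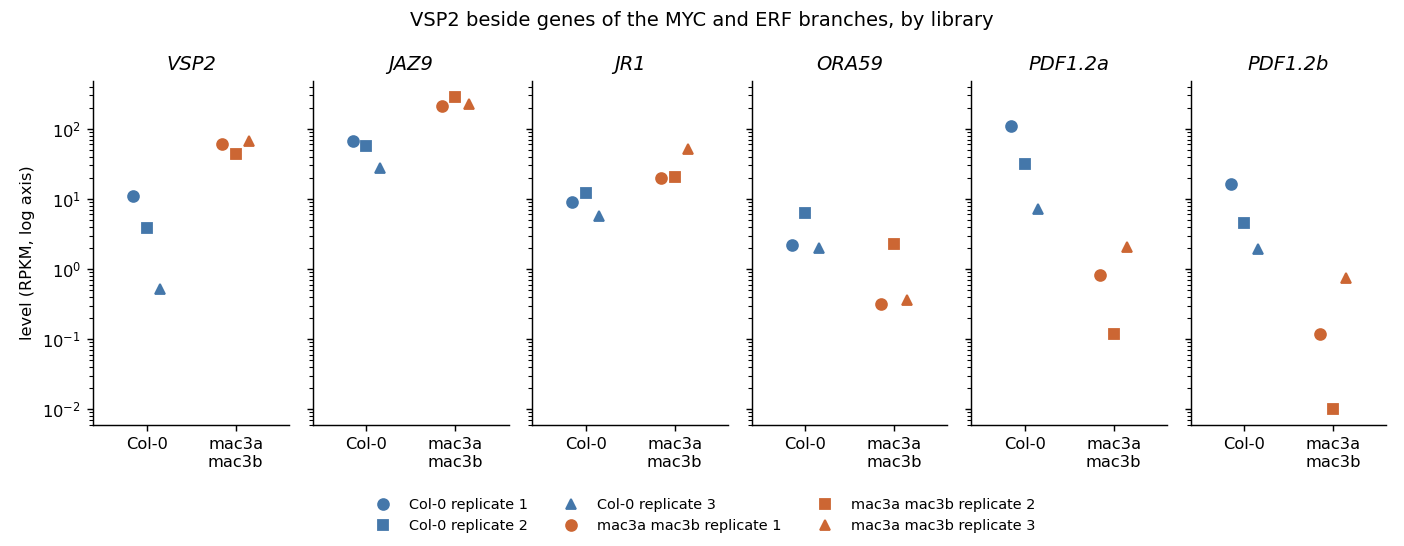
Level in RPKM on a log axis of VSP2, JAZ9 and JR1 and of ORA59, PDF1.2a and PDF1.2b in each Col-0 (blue) and mac3a mac3b (orange) library; marker shapes give the replicate number. VSP2, JAZ9 and JR1 are higher in each mutant library than in each Col-0 one, PDF1.2a and PDF1.2b lie lower, and ORA59 overlaps (Col-0 1.96 to 6.33 RPKM, mutant 0.32 to 2.25 RPKM). JR1 and PDF1.2b were chosen after their values were seen, and the genes shown do not stand for their lists. In the MYC branch list 3 of 8 tested genes had a negative log2 difference. In the ERF branch list 1 of 5 had a positive one, and CHIB, too low to be tested, was also higher in the mutant.

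Among acid phosphatase relatives of the VSP genes, 0 of 6 tested passed with or without the block, with 0 at an unadjusted p under 0.05 in limma and 2 with the block. Of all 17163 genes tested, 1893 had an unadjusted p under 0.05 in limma and 4230 with the block. The highest of these relatives, AT5G44020, was at 80.4, 39.5 and 11.1 RPKM in Col-0 and at 62.4, 38.6 and 99.9 RPKM in the mutant. Its Col-0 replicate 3 was low, as for VSP2, but the genotypes overlapped.

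**Figure D3:**
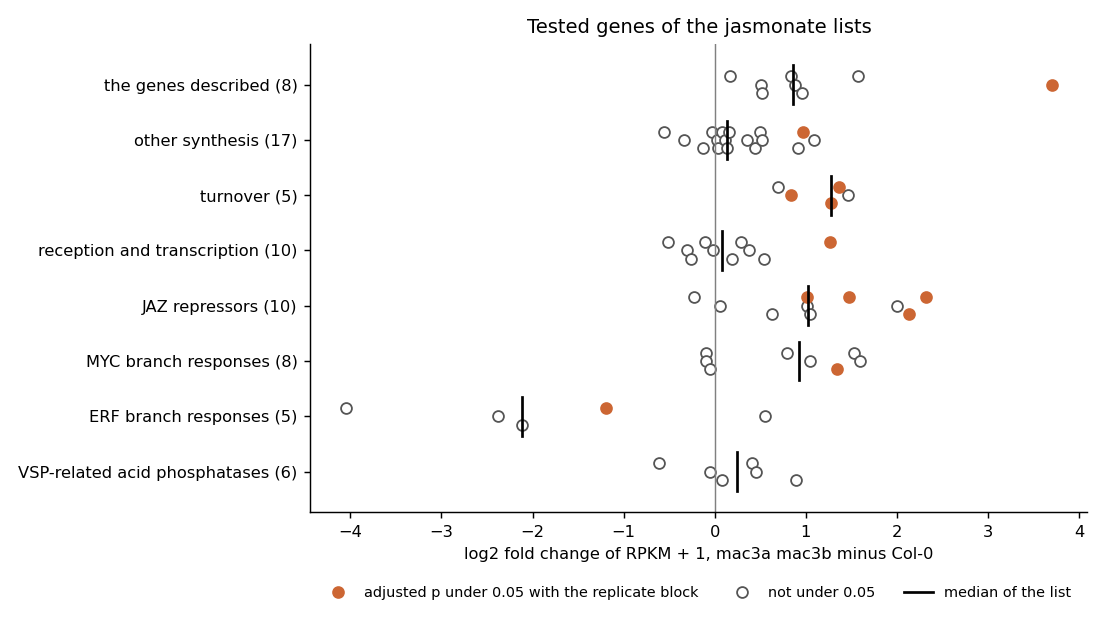
Log2 difference of RPKM + 1, mac3a mac3b minus Col-0, for each tested gene of the 8 described and of the 7 other lists, 1 point per gene and the number tested in brackets; black bars are list medians and filled points have a limma adjusted p under 0.05 with the replicate block. The JAZ list (median 1.03) and the turnover list (1.28) lie mostly to the right of 0, and 4 of 5 tested genes of the ERF branch (median −2.11) to the left. The ERF branch median is the value of PR4, whose groups overlap.

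The clock genes CCA1 and TOC1 moved with the genotype. CCA1, which peaks at dawn, ran from 1.22 to 6.90 RPKM in wild-type and from 30.7 to 58.1 RPKM in mutant libraries, and TOC1, which peaks at dusk, at 54.3 to 61.8 and 9.09 to 16.2 RPKM. The part of the hour of collection or of the clock in the levels of VSP2 and the JAZ genes was not tested.

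Splicing was measured apart from the levels, as the average read depth in an intron in percent of intron plus neighbouring exon depth. AOS and MYC2 have no intron. The other 6 genes have 16 introns in the tables, of the lengths that RefSeq gives on TAIR10.1, and 14 had depth enough in every library. The 2 introns of VSP1 were left out, since Col-0 replicate 3 had no depth there. Introns are numbered here from the 5′ end of the gene.

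The sequences of 4 short introns, chosen after their values were seen because the results turn on them, are shown 5′ to 3′ on the strand of the gene, from RefSeq (TAIR10.1), with the GT of the donor and the AG of the acceptor in capitals. They lie at chr3:16527567-16527652, chr3:9407210-9407312, chr2:2361819-2361894 and chr2:2360067-2360147, the last 2 on the minus strand.
LOX2 intron 4: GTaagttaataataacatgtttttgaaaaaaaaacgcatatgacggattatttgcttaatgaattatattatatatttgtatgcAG
AOC2 intron 1: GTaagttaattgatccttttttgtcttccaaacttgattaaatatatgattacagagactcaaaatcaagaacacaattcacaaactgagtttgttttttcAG
OPR3 intron 2: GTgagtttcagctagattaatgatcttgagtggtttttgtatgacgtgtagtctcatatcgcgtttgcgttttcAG
OPR3 intron 4: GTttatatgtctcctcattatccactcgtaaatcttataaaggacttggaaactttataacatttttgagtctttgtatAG

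Retention rose in 12 of the 14 introns (limma, adjusted p under 0.05 over 94773 introns), where 62.3% of all introns were called higher. It fell in 0. The introns that did not pass were the 2 of VSP2. With the replicate block 10 passed, as did 61.9% of all introns, without LOX2 introns 1 and 6 (limma adjusted p 0.0715 and 0.0636). When mutant replicate 2 was left out, 7 passed, with no share over all introns at hand for that fit. In 9 introns the mutant range lay wholly above the Col-0 range, as in 65.5% of all introns; the other 5 were those of VSP2, LOX2 introns 1 and 6 and OPR3 intron 3. The median log2 change was 2.21, against 1.83 over all introns, and the median change in percentage points 3.16, against 1.25.

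OPR3 intron 1, of 90 bases, changed most in percentage points. Its retention was 7.21%, 7.18% and 4.89% in Col-0 and 17.9%, 28.2% and 13.8% in the mutant. The groups did not overlap, and the rise of 13.5 points (limma adjusted p 0.0113) was exceeded by 0.419% of all tested introns. One RefSeq transcript of OPR3 keeps this intron as exon, and it lies beside a non-coding part of the first exon. A mean of 97.0% of Col-0 and 98.8% of mutant junction reads used a donor 53 bases further upstream. Part of the exon counted beside intron 1 is thus spliced out in most reads. Its exon depth in Col-0 was 945 to 1448, against 1809 to 2936 beside intron 2. This can raise its percentages and its rank among all introns. OPR3 intron 4, shown above, was retained at 1.74%, 3.68% and 0.628% in Col-0 and at 6.37%, 14.8% and 4.19% in the mutant (limma adjusted p 0.0276). OPR3 intron 2, named after its values were seen, went from 0.0818% ± 0.0686 to 3.32% ± 2.94 (SD, n = 3). Its log2 change of 4.86 was the largest of the 14 (limma adjusted p 0.00301). Its intron depth in Col-0 was only 2.16, 3.68 and 0.05, so the size of this change depends on the 0.5 added to each depth.

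In AOC2 intron 1, retention was 0.926%, 1.93% and 1.61% in Col-0 and 8.03%, 14.4% and 4.05% in the mutant, a rise of 7.34 points (limma adjusted p 0.0069). The single intron of the neighbour AOC1, of 369 bases, was at 0.937%, 1.37% and 1.55% in Col-0 and at 5.78%, 9.50% and 2.39% in the mutant, a rise of 4.61 points (limma adjusted p 0.016). Neither intron overlapped between the genotypes. So retention rose in both cyclase genes, also in AOC2, whose level differed little.

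All 6 introns of LOX2 passed, with mutant means of 0.858% to 2.50% and Col-0 means of 0.0628% to 0.530%. At LOX2 intron 1, a mean of 99.6% of Col-0 and 99.7% of mutant junction reads used a donor 250 bases before the annotated one. There too part of the exon counted beside the intron is spliced out in most reads. In LOX2 intron 4 retention was 0.0620%, 0.0471% and 0.0794% in Col-0 and 1.16%, 2.78% and 0.464% in the mutant (log2 change 4.15, limma adjusted p 0.00185). Depth in its neighbouring exons was at least 4868 in every library. Depth in the intron itself was only 16.3, 12.8 and 3.87 in Col-0, against 204.6, 706.2 and 117.6 in the mutant. The small Col-0 shares thus rest on little coverage of the intron.

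VSP2, the gene whose level differed most, had no intron that passed. Its intron 1 was retained at 0.511%, 0.975% and 3.09% in Col-0 and at 4.23%, 10.1% and 0.409% in the mutant, and intron 2 at 0.182%, 3.81% and 11.3% and at 6.47%, 17.5% and 0.613%. Replicate 3 was the highest Col-0 library and the lowest mutant library in both, so the groups overlapped. In Col-0 replicate 3 the exon depth was only 23.1 beside intron 2, and the intron depth 2.95, against an exon depth of at least 1833 in the mutant. A RefSeq transcript of VSP2 keeps intron 2 as exon. The limma adjusted p was 0.569 for intron 1 and 0.661 for intron 2.

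**Figure D4:**
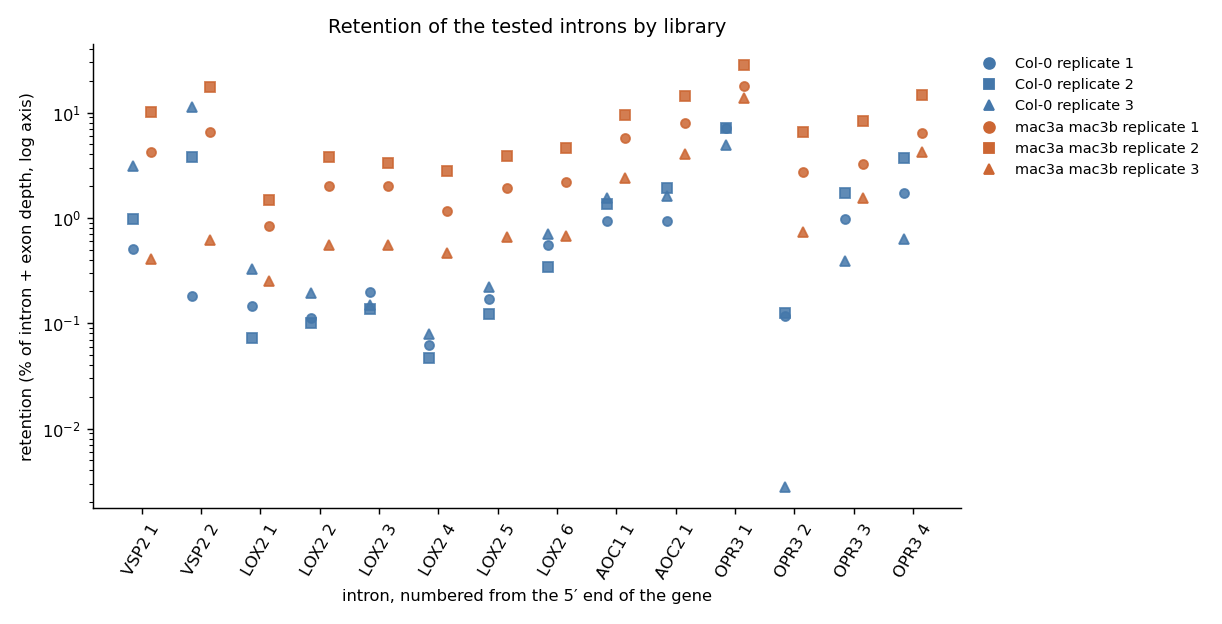
Retention in percent of intron plus exon depth, on a log axis, of the 14 tested introns in the Col-0 (blue) and mac3a mac3b (orange) libraries, with marker shapes for the replicate number. Mutant replicate 2 (orange squares) is the highest and mutant replicate 3 (orange triangles) the lowest mutant library in every intron; the groups overlap in 5 introns, both of VSP2, LOX2 introns 1 and 6 and OPR3 intron 3.

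The mutant libraries differed among themselves in the same order in every one of these introns. Replicate 2 was the highest mutant library in 14 of 14 tested introns and replicate 3 the lowest in 14 of 14. Over all tested introns replicate 2 was the highest in 31.5% and replicate 3 the lowest in 29.4%. The median retention of the 14 introns was 2.99%, 7.40% and 0.661% in mutant replicates 1, 2 and 3, whereas the median of all introns was 1.56%, 1.62% and 1.76%. In Col-0 the medians of the 14 were 0.354%, 0.657% and 0.508%. The library with the highest retention was thus the one with the highest levels of MYC2, OPR3, AOC1, AOC2 and AOS, but not of LOX2, VSP2 or VSP1, and VSP1 stood there at 17.0% of the mean of the other 2 mutant libraries. Introns of a gene share its reads, so the 14 introns stand for 5 genes. Why these libraries differ was not tested.

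Other lists of the pathway shared this order in part. Mutant replicate 2 was the highest mutant library in 32 of 42 tested introns of JAZ genes, 22 of 22 of MYC branch genes and 12 of 13 of turnover genes. It was the highest in 52 of 131 introns of other synthesis genes, 16 of 44 of reception and transcription and 4 of 14 of the acid phosphatases, nearer to the 31.5% of all introns. Among levels, replicate 2 was the highest mutant library for 9 of 10 JAZ genes and 36 of the 61 genes of all lists, against 37.9% of all genes tested. These shares carry no test, since genes and introns are not replicates.

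**Figure D5:**
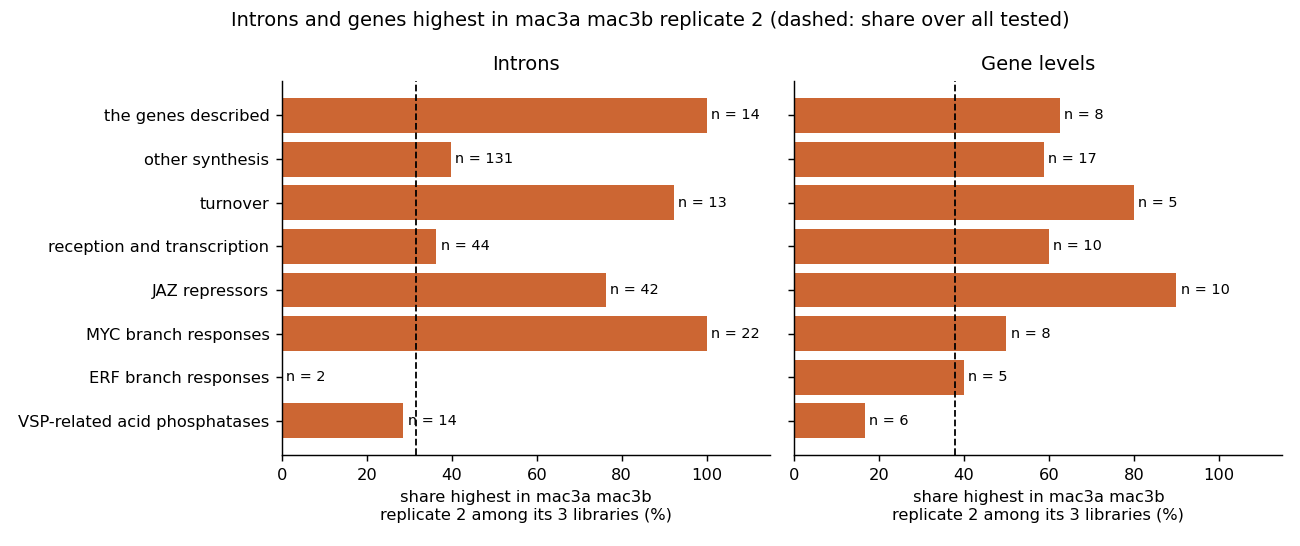
Share of tested introns (left) and of tested gene levels (right) that are highest in mac3a mac3b replicate 2 among the 3 mutant libraries, for the genes described and the 7 other lists; bars start at 0, n is the number of introns or genes, and dashed lines mark the share over all tested introns (31.5%) or genes (37.9%). The bars reach 100% for introns of the genes described and of the MYC branch, and stay at or below the dashed line for introns of the ERF branch and the acid phosphatases.

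Exon skipping was all but absent in these genes. The tables list 2 events, and edgeR called 0, with 0 at an unadjusted p under 0.05 and 0 in limma on the log2 ratio, where 0.0162% of all events were called. In OPR3, skipping of exons 2 and 3, counted along the chromosome, had 0 reads in Col-0 in 6362 reads of both kinds, so its share could be up to 0.0472%. In the mutant it had 1 read of 6548. In LOX2, skipping of exon 5 had 0 reads in 53552 in Col-0, a limit of 0.0056%, and 1 read of 58359 in the mutant. These limits cover counting error only.

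Of 131 listed donor and acceptor events 126 could be tested, and 1 passed, where 0.187% of all events passed. The event joins LOX2 exon 5 to an acceptor 24 bases before the annotated start of exon 6, inside intron 5. The 70 bases around it (chr3:16528058-16528127, plus strand, RefSeq TAIR10.1) are shown because both acceptors can be read in them. The first AG in capitals ends just before the alternative exon start, and the second just before the annotated one.
LOX2 exon 6 acceptors: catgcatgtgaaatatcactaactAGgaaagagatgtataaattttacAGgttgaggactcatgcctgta

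This junction had 1, 2 and 0 reads in Col-0 and 12, 8 and 14 reads in the mutant. Every mutant library thus had more than any Col-0 library, although the share stayed small, at 0.00719% ± 0.00724 for the wild type and 0.107% ± 0.0349 for the mutant (SD, n = 3; 30377 and 32433 reads of both kinds). The edgeR adjusted p was 0.0317. With the replicate block it was 0.131, and limma on the log2 ratio gave 0.218. Without any 1 library other than mutant replicate 2, the event did not pass.

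An alternative donor in OPR3, chosen after its values were seen, moved the other way. Reads that join the donor nearest to the acceptor of intron 1 made up 1.90%, 3.40% and 2.45% of junction reads in Col-0 and 0%, 0.924% and 0.903% in the mutant. No mutant library reached the lowest wild-type share, in 2044 and 1865 reads, yet the event did not pass (edgeR adjusted p 0.684, and 0.0793 among events where each kind had 60 reads or more). The main donor of that intron lies 53 bases further upstream.

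The upstream 250 bases of each gene were searched on both strands for CACGTG, the G-box that MYC2 binds, and for CATGTG, a variant of it. The G-box occurred in 1 of 8, AOS, 6 bases before the annotated start, and in 6.5% of 27443 genes. The variant occurred in 1 of 8, LOX2, 97 bases before the start, and in 11.1% of all genes. The windows of VSP1 and VSP2 hold neither. A match is a description of letters, not a binding site, and the windows reach no further than 250 bases.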

How the data were processed

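The 6 libraries were grouped and numbered by their titles. Per the submitters' processing notes the authors used Trimmomatic, Bowtie2, DESeq2 and the TAIR10 build; versions are not given in the sources used here. The deposited expression values were read as RPKM, since multiplying by gene length gave values that kept a fixed ratio, to 1%, to the authors' unique read counts in 97.35% or more of the genes compared. The authors' deposited table also gives a log2 fold change and an adjusted p-value, quoted only as theirs. The deposited splicing tables hold counts of junction reads and, for introns, average read depth (a coverage signal). RackJ made them, per the file names. The authors' adjusted score and p-value columns of those tables were not used.

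Computed here: limma 3.58.1 (R 4.3.3, eBayes with trend) on log2(RPKM + 1) over genes whose mean reached 1 RPKM, a scale that understates changes of low genes; limma on the log2 ratio of intron to exon depth, each raised by 0.5, where their sum reached 10 in every library; and edgeR 4.0.16 (quasi-likelihood, interaction of genotype and read kind) for events whose kinds together had 10 reads or more in every library. The design foresaw this choice of tests for RPKM and depth. DESeq2 1.42.0 and edgeR on unique read counts were alternatives, as were other pseudocounts, filters and scaling and leaving out each library. P-values were adjusted by Benjamini-Hochberg over all features, with a threshold of 0.05. The fits were also run on simulated data as a check of the code. The spread there was set in advance and not taken from these libraries, so no result rests on that run.

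Pairing was checked by correlating, across genes, the deviations of same-numbered libraries from their genotype means. The correlations were 0.62, 0.78 and 0.43, so fits with the number as a block are given beside results they change, although no label explains the numbers. For introns the correlations were 0.06, 0.12 and 0.05.

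The genes and lists were chosen with earlier results of these data known. Named are the 8 genes, other pathway genes past the threshold with the block (at most 12) and the highest gene of each list, the 5 genes most like VSP2 and like LOX2, the 5 introns with the largest change in points, and events past the threshold; others are marked as chosen later. RefSeq sequences and introns are of TAIR10.1, whose intron lengths equal those in the tables for all 16 introns.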

Additional observations from a re-analysis of the deposited data

How the results depend on the processing

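Of the 8 genes described, the number called was 0 in the fit as reported and in 11 alternatives, 6 of which left out 1 library (0 to 0). It was 1 with the replicate block, 1 with DESeq2 and 2 with DESeq2 and the block. It was also 2 with RPKM rescaled to equal sums and the block, an alternative chosen after seeing the data. The genes were VSP2 and, where 2 were called, AOC1. For the DESeq2 and rescaled fits no share over all genes is at hand, so these counts are not read against one. VSP2 was higher in the mutant under every alternative run, with log2 differences from 2.93 to 4.42. AOC2 changed sign between alternatives (−0.41 to 0.54) and AOS came to −0.01 in one.

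The pairing mattered for the other pathway genes. Their calls numbered 0 as reported and 0 to 0 without 1 library, but 11 with the block. They numbered 8 with edgeR and the block, 16 with DESeq2 and the block, 15 rescaled with the block, and 6 with DESeq2 alone. For the edgeR, DESeq2 and rescaled fits no share over all genes is at hand beside these counts. Without 1 library 11 to 20 genes had an unadjusted p under 0.05, with no share over all genes at hand for these fits. With all libraries it was 14 of 61, and 1893 of all 17163 genes tested.

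Called introns ran from 7 to 12 of 14 when 1 library was left out, and were 12 of 12 at a depth of at least 30, 10 of 16 with no filter, 8 with a pseudocount of 0.05 and 10 with the block. Of all introns, 62.3% were called higher in the fit as reported and 61.9% with the block. For the other settings no share over all introns is at hand, so these counts are not read against one. The LOX2 acceptor was called in 0 to 1 event without 1 library, and in 0 with the block and 0 with limma on the ratio. Where each kind needed 60 reads 0 of 14 events of these genes passed, but that filter had removed the LOX2 event and every skipping event, so it tests neither. Skipping calls stayed at 0 in the alternatives run. Depth limits VSP2 in Col-0 replicate 3 and left out the introns of VSP1.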
